A study of Mus musculus with 2 samples.

Results

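The amino acid transporter families Slc1, Slc3, Slc6, Slc7, Slc36, Slc38 and Slc43 were examined in mouse macrophages after 120 minutes of stimulation. Members were taken by symbol and by having at least 1 protein-coding transcript, a rule that uses no level but was set with earlier results of these data known, which gave 59 of the 21901 genes with such a transcript. Slc7a2 and Slc7a11 were left out of the set. They stood at 18.2 and 13.9 TPM (Slc7a2) and at 14.7 and 16.9 TPM (Slc7a11) in replicates 1 and 2, where TPM is a level corrected for transcript length and library depth.

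The cells were primary macrophages grown from the bone marrow of C57BL/6J mice, a standard inbred strain, and polyadenylated RNA was sequenced. Both libraries belong to 1 group: the labels name the stimulus as lipid A at 100 ng/ml in one field and as lipoprotein A, a protein, in another, and the names were not reconciled here. The labels number the libraries as biological replicates 1 and 2, list them under 1 donor record, and do not give sex or age. No unstimulated library was analysed here, so no level below can be set against a resting state, and with 1 group no test between conditions was made.

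Depth was 33272581 counts in replicate 1 and 50266403 in replicate 2. The floor of 3 counts, up to which a gene listed at 0 could still be present, is 0.0902 and 0.0597 CPM (counts scaled to library size). All 8 macrophage markers (such as Lyz2, Cd68 and Cd14) reached 1 TPM in each library, and no T cell, B cell, stromal or mast cell marker did in both. Kit, on the mast cell list, reached it in replicate 2 only (0.57 and 2.53 TPM, 57 and 373 counts), while 3 of that list's 5 genes were lower there. By contrast, 1 dendritic cell marker of 4 (Ccr7, 2.12 and 1.28 TPM) and 1 erythroid marker of 6 (Epor, 3.81 and 1.55 TPM) did, and the 4 dendritic cell markers, which summed to 5.33 and 2.65 TPM, were all lower in replicate 2. The 9 granulocyte markers summed to 562 TPM in replicate 1 and 102 TPM in replicate 2, all 9 lower in replicate 2. The 5 megakaryocyte and platelet markers summed to 933 and 238 TPM, again all lower in replicate 2. Nearly all of that sum was Pf4, at 916 and 236 TPM. Of these lists, Ly6g and Gp9 had 0 counts in replicate 2 and no marker had 0 counts in both. In these bulk samples fewer cells of a type and less RNA per cell cannot be told apart.

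Amino acids cross membranes through carriers of several protein families. Slc7 light chains do the transport of a heteromeric pair, and the single-span glycoprotein Slc3a2 (CD98 heavy chain, 4F2hc) takes them to the cell surface through a disulfide bond. Slc1, Slc6 and most Slc38 proteins couple uptake to sodium, some Slc36 proteins couple it to protons, and Slc43 proteins are facilitators that need neither. In macrophages imported glutamine, arginine, cystine and leucine feed energy metabolism, nitric oxide and glutathione synthesis, and the activation of mTORC1 on the lysosome.

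Slc6a8, Slc38a10 and Slc3a2 have transcripts that encode different proteins and that took unequal shares of the reads, or shares that depended on the quantification, so the coding bases that set them apart are shown first. The sequences come from the GENCODE M21 transcripts (mm10), 5′ to 3′ on the coding strand. In Slc6a8, the creatine carrier, the transcripts Slc6a8-201 and Slc6a8-203 differ by 15 coding bases at chrX:73680057-73680071 on the plus strand, in capitals between 30 flanking bases on each side. They are coding bases 1393 to 1407 of Slc6a8-201, whose coding sequence has 1920 bases without the stop codon, against 1905 in Slc6a8-203.
Slc6a8-201: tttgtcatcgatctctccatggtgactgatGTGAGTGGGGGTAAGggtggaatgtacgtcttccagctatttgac
Slc6a8-203: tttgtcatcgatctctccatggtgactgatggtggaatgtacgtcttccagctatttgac

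In Slc38a10 the transcript Slc38a10-216 has 24 coding bases that Slc38a10-201 lacks, at chr11:120109372-120109395 on the minus strand, again in capitals. They are coding bases 2033 to 2056 of Slc38a10-216, whose coding sequence has 3270 bases, against 3246 in Slc38a10-201. Both insertions are whole numbers of codons, so the reading frame after them is the same.
Slc38a10-216: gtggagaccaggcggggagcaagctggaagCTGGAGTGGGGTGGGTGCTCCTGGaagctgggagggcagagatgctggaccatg
Slc38a10-201: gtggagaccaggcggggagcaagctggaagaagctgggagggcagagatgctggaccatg

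In Slc3a2 the difference lies at the start of the protein. The first 60 coding bases are shown for the 3 transcripts with a complete coding sequence, with the start codon in capitals. Transcript Slc3a2-201 encodes 526 codons, Slc3a2-207 starts at coding base 670 of Slc3a2-201 and keeps the last 303 codons, and Slc3a2-202 has 117 more coding bases than Slc3a2-201 at its 5′ end.
Slc3a2-201: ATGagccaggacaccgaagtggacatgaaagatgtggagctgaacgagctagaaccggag
Slc3a2-207: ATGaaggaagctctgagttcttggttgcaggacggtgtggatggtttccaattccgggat
Slc3a2-202: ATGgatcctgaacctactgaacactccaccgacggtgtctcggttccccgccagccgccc

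Of the 59 members, 19 (32.2%) reached 1 TPM in each library, which is called expressed here, against 9590 (43.8%) of all coding genes. Another 27 had at most 3 counts in each library, 20 of them 0 counts in both, and 13 lay between. Expressed members had a median level of 23.8 TPM, against 15.4 TPM for expressed coding genes. The members' TPM summed to 1411 in replicate 1 and 1501 in replicate 2, and took 0.343% and 0.367% of all counts. Slc3a2, Slc6a6, Slc43a2 and Slc6a8 together held 72.3% and 76.0% of that sum. The families were thus read very unevenly: the heavy chain, the taurine carrier and 1 facilitator stood above 100 TPM in both libraries, 13 members stood above 10 TPM in both, and most members were barely read.

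**Figure D1:**
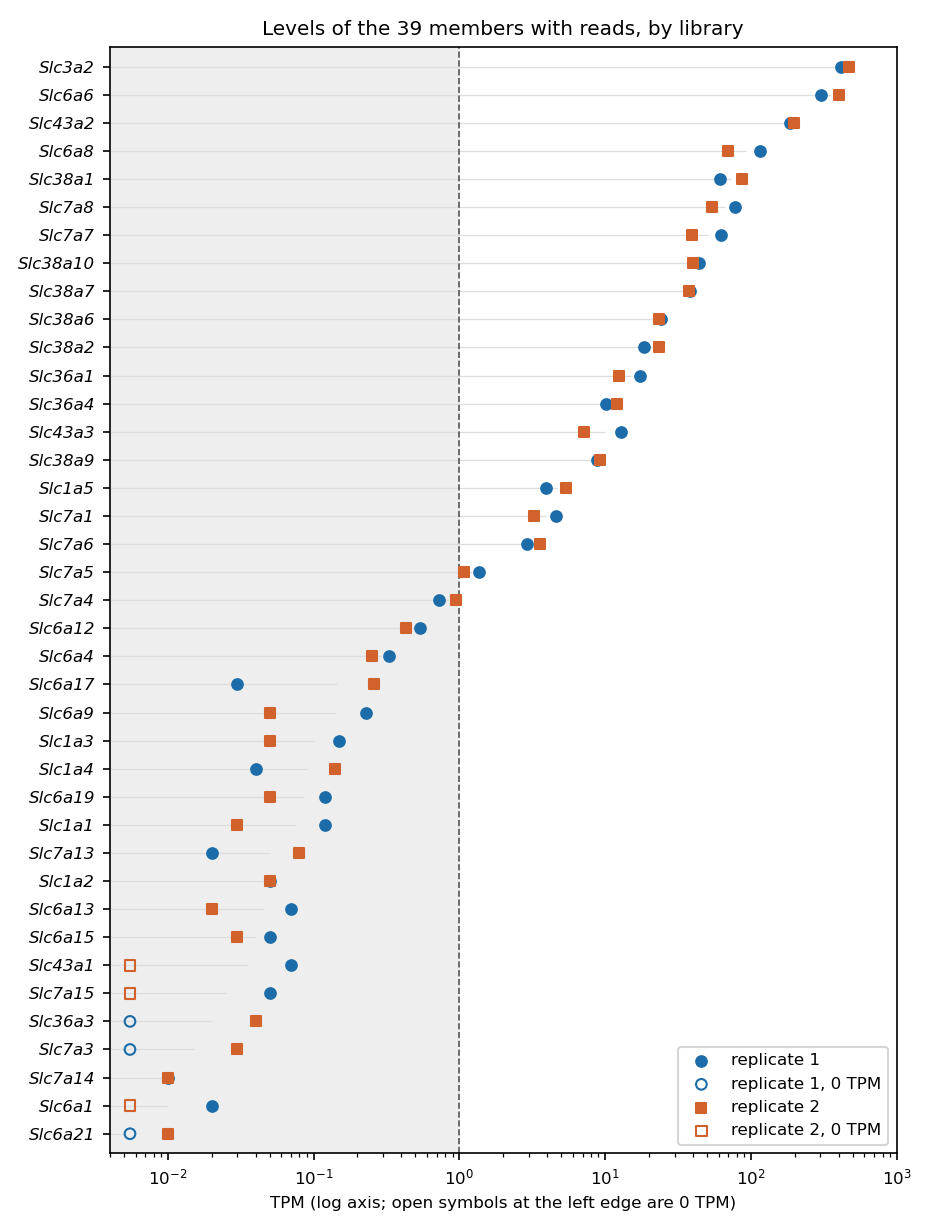
Levels in TPM (log axis) of the 39 members with at least 1 count in a library. Circles are replicate 1, squares replicate 2, open symbols 0 TPM, and the dashed line and grey area mark 1 TPM and below. The order runs from Slc3a2 at 415 and 472 TPM down to members near 0.01 TPM, and 19 members lie right of the line in both libraries.

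Slc3a2, the heavy chain shared by most Slc7 light chains, was the most abundant member. The gene (ENSMUSG00000010095.13, chr19:8706882-8723369, minus strand, mm10) stood at 415 TPM in replicate 1 and 472 TPM in replicate 2, 444 ± 39.9 (SD, n = 2), rank 296 among coding genes. Its range did not overlap that of any other member. The other heavy chain, Slc3a1, the partner of Slc7a9 in kidney and intestine, had 0 counts in both libraries, as did Slc7a9.

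Among the 5 light chains of Slc3a2 in the set, Slc7a8 and Slc7a7 dominated. Slc7a8 (LAT2, an exchanger of neutral amino acids; ENSMUSG00000022180.7, chr14:54722209-54781946, minus strand) stood at 77.8 and 54.1 TPM. Slc7a7 (y+LAT1, which exchanges cationic for neutral amino acids and is the gene of lysinuric protein intolerance; chr14:54369442-54417780, minus strand) stood at 62.0 and 39.4 TPM. The ranges of these neighbours overlapped, and both genes were lower in replicate 2. Together they made up 97.0% and 95.3% of the light-chain TPM. Slc7a6 (y+LAT2) followed at 2.90 and 3.58 TPM.

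Slc7a5 (LAT1, the leucine and tryptophan exchanger that is prominent in activated lymphocytes and many tumours) was close to the limit of what was called expressed. It had 100 counts in each library (exact Poisson 95% interval 81.4 to 122, which covers counting error only) and 1.37 and 1.07 TPM. The deposited posterior mean estimate put it higher, at 11.0 and 5.80 TPM. The gene is overlapped on the opposite strand over 26545 bases by Gm20388, a protein-coding gene model at 27.8 and 32.2 TPM. Whether the counting used strand is not given in the sources used here, so reads of this pair cannot be told apart with certainty. Slc7a10 (Asc-1) had 0 counts in both libraries.

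The heavy chain outnumbered its light chains in TPM, a scale that allows levels of different genes to be compared. The 5 light chains summed to 144 TPM in replicate 1 and 98.2 TPM in replicate 2, and Slc3a2 stood at 2.88 and 4.81 times that sum. These are gene levels over all transcripts. That of Slc3a2 includes the shortened Slc3a2-207, at 103 and 74.5 TPM. With Slc7a11 (xCT, the cystine and glutamate exchanger) added to the light chains the ratio was 2.62 and 4.10. The ratio thus moved by more between the libraries than Slc3a2 itself did, since its main light chains were lower in replicate 2.

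Of the 4 cationic amino acid uniporters and their relatives in the set, only Slc7a1 was expressed, at 4.57 and 3.27 TPM. Slc7a1 (CAT1) is the widely expressed arginine and lysine importer. Slc7a2, a cationic carrier left out of the set, stood above it at 18.2 and 13.9 TPM. Within the set Slc7a4 came next at 0.73 and 0.95 TPM (34 and 58 counts), just under the minimum in both libraries. Slc7a1 and Slc7a6 were neighbours in the order with overlapping ranges.

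Slc43a2 (LAT4, a facilitator of branched-chain amino acids, phenylalanine and methionine) was the third most abundant member. The gene (chr11:75531694-75577575, plus strand) stood at 185 and 199 TPM, 192 ± 10.1 (SD, n = 2). Slc43a3, which is known as a purine nucleobase carrier rather than an amino acid carrier, stood at 12.8 and 7.13 TPM. Slc43a1 (LAT3) was not expressed.

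The Slc38 family had the most expressed members, 6 of 11, with 195 and 220 TPM in sum. Slc38a1 (SNAT1, a sodium-coupled glutamine importer) led with 61.0 and 86.3 TPM. Slc38a2 (SNAT2, the importer that is induced when amino acids run short) stood at 18.5 and 23.3 TPM. Both were higher in replicate 2. Slc38a10 stood at 44.3 and 40.0 TPM, Slc38a7 (SNAT7, which exports glutamine and asparagine from lysosomes) at 38.3 and 37.4 TPM, and Slc38a6 at 24.2 and 23.4 TPM. Slc38a9, the lysosomal carrier that senses arginine for mTORC1, stood at 8.83 and 9.22 TPM. The last 4 differed little between the libraries. The other 5 members of the family had 0 counts in both.

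Slc1a5 (ASCT2), the sodium-dependent glutamine exchanger on which many proliferating cells rely, was low at 3.96 and 5.39 TPM (222 and 434 counts). Slc38a1 alone stood well above it in both libraries. Slc36a1 (PAT1, a proton-coupled carrier of small neutral amino acids that sits on lysosomes) stood at 17.4 and 12.5 TPM, and Slc36a4 (PAT4) at 10.2 and 12 TPM. The other 2 Slc36 genes were under the floor of 3 counts.

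The Slc6 family was the most lopsided, with 2 of 19 members expressed and yet 29.9% and 31.4% of the members' TPM. Slc6a6 (TauT, the taurine importer; ENSMUSG00000030096.8, chr6:91684053-91759066, plus strand) stood at 305 and 400 TPM, 353 ± 67.2 (SD, n = 2), second only to Slc3a2. Slc6a8 (the creatine importer; ENSMUSG00000019558.14, chrX:73673150-73682502, plus strand) stood at 115 and 69.5 TPM, 92.5 ± 32.5 (SD, n = 2). The 2 carriers moved apart between the libraries: Slc6a6 was higher and Slc6a8 lower in replicate 2. Both carry organic solutes rather than protein-building amino acids.

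By counts and the main TPM estimate, the carriers that clear or recycle neurotransmitters were near silence. None of the 9 Slc6 genes grouped here as carriers of neurotransmitters and osmolytes was expressed, and 6 of them were under the floor. That group leaves out the taurine and creatine carriers Slc6a6 and Slc6a8 described above. Their TPM summed to 1.19 and 0.75. The highest were Slc6a12 (the betaine carrier) at 0.54 and 0.43 TPM and Slc6a4 (the serotonin carrier) at 0.33 and 0.25 TPM. None of the 5 glutamate carriers of the Slc1 family was expressed, with a sum of 0.32 and 0.13 TPM. The posterior mean estimate, given for Slc7a5 above, was higher here too. It put Slc1a2 at 14.3 and 8.03 TPM on 3 and 4 counts. Slc6a9 (2.91 and 1.8 TPM), Slc6a12 (1.52 and 1.2 TPM) and Slc6a17 (1.25 and 1.04 TPM) also passed 1 TPM in both libraries with it. Slc6a17, from a further group of 8 Slc6 carriers without an expressed member, had 4 and 13 counts, too few to read a level. For the members under the floor, 3 counts would stand at 0.0105 to 0.174 TPM depending on length and library, so lower levels were not detectable at this depth.

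Where the order of the 19 expressed members was read across both libraries, 8 of the 18 neighbouring pairs had overlapping ranges. The first 4 places of the order (Slc3a2, Slc6a6, Slc43a2, Slc6a8) did not overlap each other. From Slc6a8 through Slc38a1, Slc7a8 and Slc7a7 to Slc38a10 each neighbour overlapped the next, so adjacent places were not separated. Some members further apart were separated: Slc6a8 lay wholly above Slc7a7 and Slc38a10, and Slc38a1 and Slc7a8 lay wholly above Slc38a10. Others were not: Slc6a8 also overlapped Slc7a8, and Slc38a1 also overlapped Slc7a7. In the same way Slc43a3 overlapped both Slc36a4 and Slc38a9, and Slc7a1 overlapped both Slc1a5 and Slc7a6, while Slc36a4 lay above Slc38a9 and Slc1a5 above Slc7a6.

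The only comparison within the group is between its replicates. The ratio used was that of CPM after TMM scaling, replicate 2 over replicate 1, for genes with a mean count of at least 50, which all 19 expressed members reached. It has no test, since a single library on each side leaves no spread to test against. None of the 19 was 2-fold or more apart, where 3.99% of the 10445 genes read were. Slc38a1 was 1.54 times as high in replicate 2 (log2 ratio 0.62), the 1 member past 1.5-fold in that direction, where 7.46% of all genes were. Slc6a8 was 1.51 times as high in replicate 1 (log2 ratio -0.60), the 1 member past 1.5-fold the other way, where 7.14% of all genes were. These shares are near the background and are no result about the members.

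The median size of the log2 ratio, whatever its sign, was 0.40 for members and 0.24 for all 10445 genes. On the TMM scale 10 members were higher and 9 lower in replicate 2. Higher were Slc38a1, Slc1a5 (0.54), Slc6a6 (0.49), Slc38a2 (0.46), Slc7a6 (0.42), Slc36a4 (0.38), Slc3a2 (0.35), Slc43a2 (0.20), Slc38a6 (0.13) and Slc38a10 (0.07). Lower were Slc6a8, Slc43a3 (-0.57), Slc7a7 (-0.57), Slc7a5 (-0.43), Slc7a8 (-0.40), Slc7a1 (-0.36), Slc36a1 (-0.34), Slc38a9 (-0.12) and Slc38a7 (-0.04). Slc38a6, Slc38a9 and Slc38a10 had the opposite sign on the TPM scale and so have no clear direction. In the second deposited quantification, which carries the column names of kallisto, Slc43a2 was lower in replicate 2 on the TPM scale (169 and 163 TPM). On that scale Slc3a2 was nearly equal in both (372 and 374 TPM). These values are not TMM-scaled, so they are not like the ratios above. Over expressed coding genes the TPM there was a median of 0.886 and 0.813 times that of the first quantification, lower in replicate 2. The granulocyte, platelet and dendritic cell marker sums given above differed between the same libraries, and their part in these ratios was not tested.

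**Figure D2:**
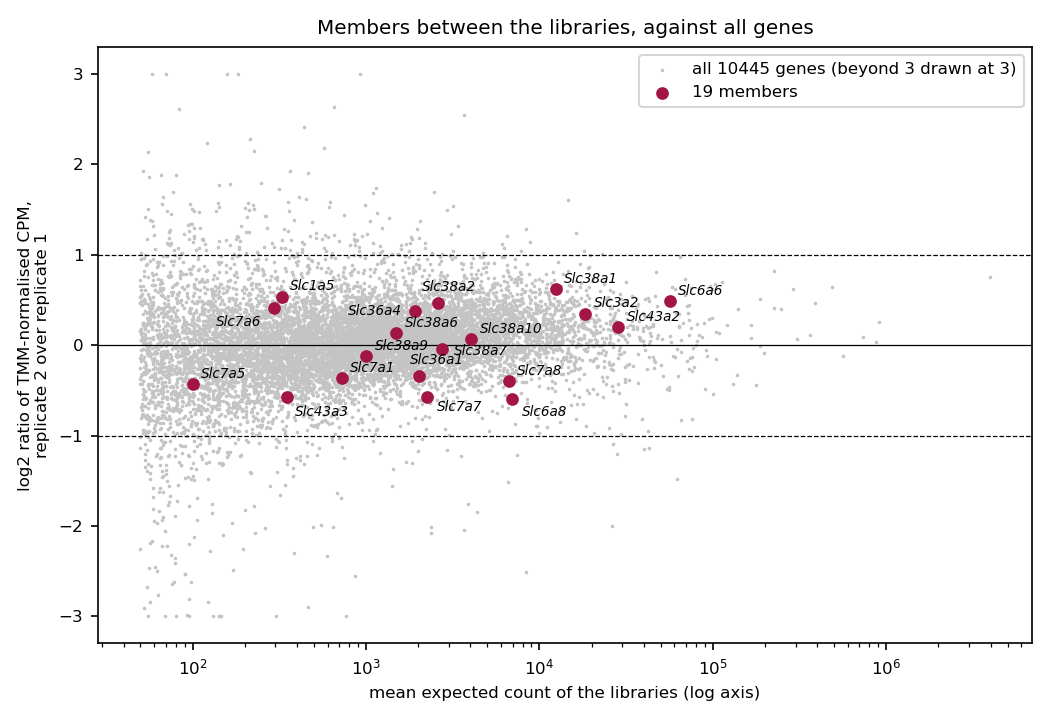
Log2 ratio of TMM-normalised CPM, replicate 2 over replicate 1, against the mean expected count (log axis) for 10445 genes (grey; ratios beyond 3 drawn at 3) and the 19 expressed members (red). Dashed lines mark 2-fold. All 19 members lie between the dashed lines, from Slc6a8 at -0.60 to Slc38a1 at 0.62.

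Each gene's TPM was split over its transcripts to see which protein the reads were assigned to. For the 13 members above 10 TPM on average with more than 1 transcript, the median share of the leading transcript was 77.4%, against 80.6% for 5536 coding genes chosen the same way. The median share of all transcripts with the same coding sequence as the leading one was 88.2%, against 86.0%. The leading transcript was protein coding for all 13 members, against 94.8% of those genes. Members thus differed little from other genes in this respect.

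Several members had many transcripts but 1 protein. The leading transcript of Slc7a7, Slc7a7-202, held only 43.2% and 40.5% of its TPM, yet transcripts with the same 1530-base coding sequence held 90.1% and 86.4%. In Slc38a1 the leading transcript held 66.5% and 63.4% and its coding sequence 96.8% and 96.4%. In Slc43a2 the figures were 68.6% and 67.0% against 86.8% and 83.1%. These transcripts differ in their untranslated parts. Slc7a8, Slc38a2, Slc36a1, Slc36a4 and Slc6a6 had a single transcript with 93.5% or more of the TPM in each library.

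Slc3a2 had 2 coding sequences at substantial levels. The 526-codon transcript Slc3a2-201 held 72.9% and 81.9% of the TPM (303 and 387 TPM), and Slc3a2-207, whose first bases are shown above, held 24.7% and 15.8% (103 and 74.5 TPM). The longer Slc3a2-202 held 1.79% and 1.76%. In the second deposited quantification, made from the read files and an index, Slc3a2-207 held less, 16.7% and 9.09%. In both quantifications its share was higher in replicate 1.

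Slc6a8 was split between transcripts with and without the 15 coding bases shown above. Slc6a8-201 and Slc6a8-203 also differ outside those bases, at 3964 and 3314 bases in length. The shorter coding sequence, Slc6a8-203, held 58.3% and 45.8% (67.4 and 31.8 TPM), and Slc6a8-201 with the added bases held 19.7% and 29.3% (22.7 and 20.4 TPM). Most of the gene's difference between the libraries thus lay in Slc6a8-203, and Slc6a8-201 differed by little. A transcript annotated as a target of nonsense-mediated decay, the pathway that degrades messages with an early stop, held 11.5% and 12.8%, but 0 in the second quantification. There Slc6a8-201 and Slc6a8-203 were at 25.1% and 58.1% in replicate 1 and at 38.2% and 36.5% in replicate 2, so in replicate 2 the leading transcript differed between the quantifications. The order of the coding sequences did not: with Slc6a8-204, which has the same 1905 bases as Slc6a8-203, the shorter sequence held 63.0% and 50.6% there.

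Slc38a10-201 and Slc38a10-216 also differ outside the 24 coding bases shown, at 4554 and 4052 bases in length. The split of Slc38a10 depended on the quantification. In the first, Slc38a10-201 without the 24 bases held 59.9% and 75.3% and Slc38a10-216 with them held 14.4% and 0.93%. In the second, Slc38a10-216 held 64.4% and 64.7% and Slc38a10-201 held 11.5% and 11.9%. The gene's summed level was similar in both (44.3 and 40.0 TPM against 41.6 and 36.1 TPM), so the level depended little on the quantification, while which of the sequences shown above prevailed did. Ranked by the mean of the libraries, the other 12 of the 13 members had the same leading transcript in both quantifications, where 91.4% of coding genes did. In replicate 2 alone the leading transcripts of Slc6a8 and Slc38a6 differed as well.

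Slc38a9 lay below the 10 TPM used for these counts and showed another kind of split. Its full-length coding transcript Slc38a9-201 held 48.3% and 37.6%, while Slc38a9-202, a 681-base transcript annotated as a decay target with a 126-base coding sequence, held 35.5% and 42.3%. Only 4.27 and 3.46 TPM of the gene were thus assigned to the full-length arginine sensor. Slc43a3-201, with the only complete coding sequence read for that gene at more than a trace, held 48.8% and 53.7%.

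**Figure D3:**
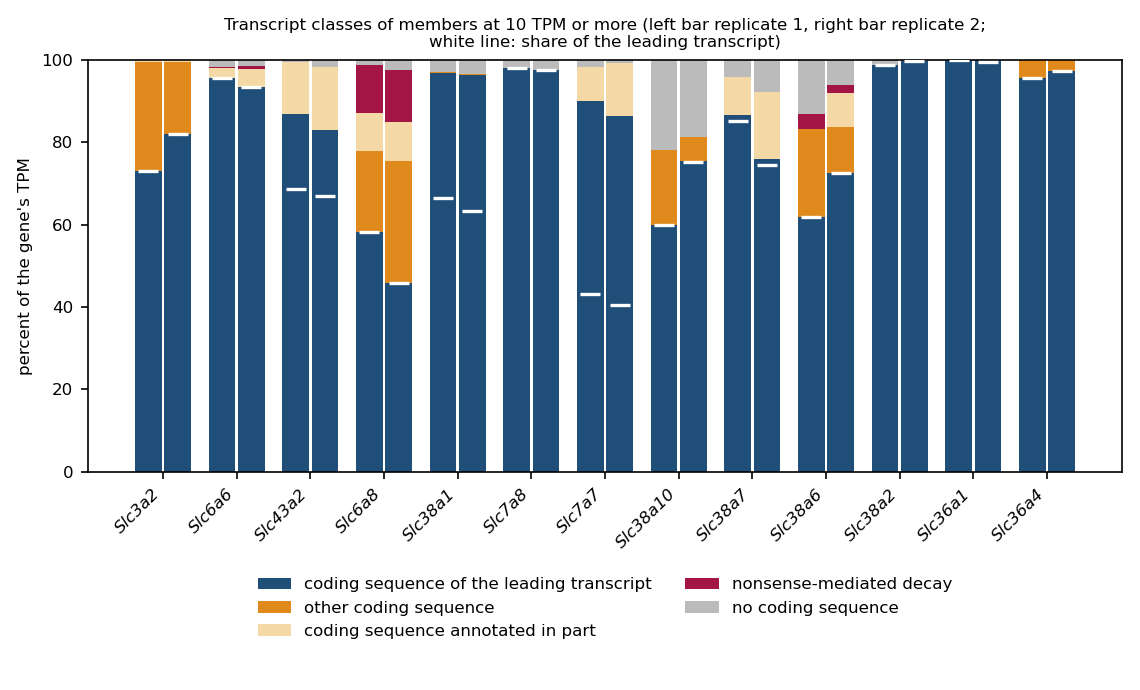
Percent of each gene's TPM by class of transcript for the 13 members above 10 TPM, replicate 1 as the left and replicate 2 as the right bar. Dark blue is the leading transcript's coding sequence, other colours are the remaining classes, and the white line is the leading transcript alone. Slc7a7, Slc38a1 and Slc43a2 have a white line well inside the blue, and Slc6a8, Slc3a2, Slc38a10 and Slc38a6 have a second coding sequence (orange).

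Gene levels were compared between the 2 deposited quantifications, whose tables carry the column names that RSEM and kallisto write. The kallisto level was a median of 0.905 and 0.820 times the RSEM level over the 19 expressed members, near the 0.886 and 0.813 over expressed coding genes. Slc38a6 stood apart at 1.48 and 1.45 times, while the other 18 lay between 0.743 and 1.01. Its difference came with transcript Slc38a6-208, a 3927-base transcript with a 375-base coding sequence. This transcript was at 1.32 and 0.85 TPM in the RSEM table and at 11.7 and 15.4 TPM in the kallisto table. The leading Slc38a6-206 was at 15.0 and 17.0 TPM against 14.1 and 13.9 TPM. Of the 20 members with 0 counts in both libraries, 4 had over 3 estimated counts in the kallisto table in at least 1 library.

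**Figure D4:**
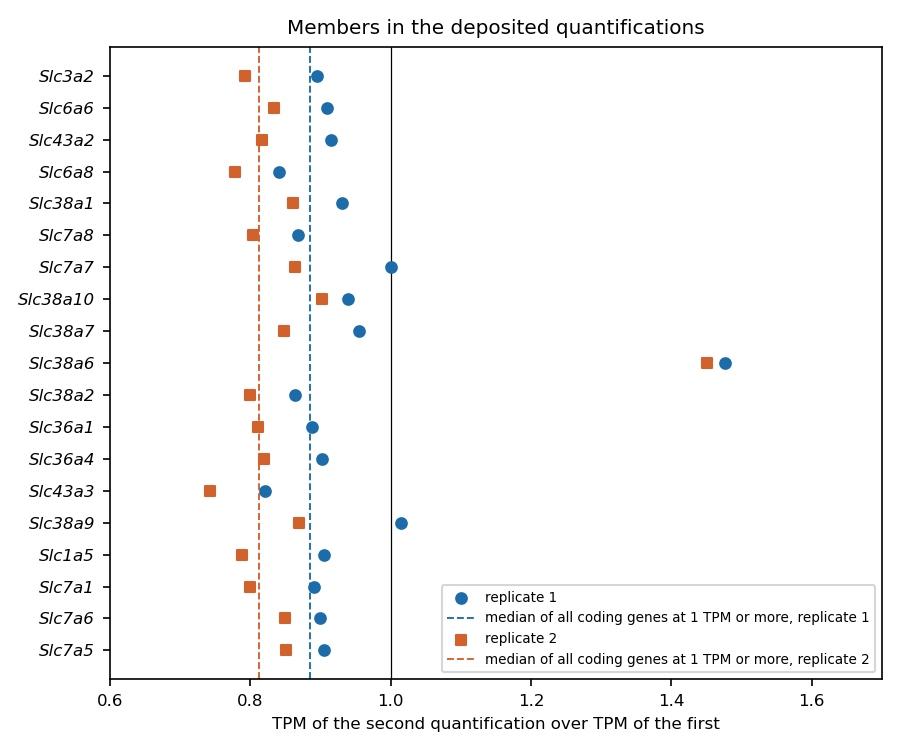
Ratio of the kallisto to the RSEM level (TPM) for each of the 19 expressed members, ordered by level, with replicate 1 as circles and replicate 2 as squares. Dashed lines are the medians over expressed coding genes, 0.886 and 0.813. Slc38a6 lies apart at 1.48 and 1.45.

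The lists around the carriers were read in the same way. Of 32 genes that sense lysosomal amino acids and relay them to mTORC1, 31 were expressed, where 43.8% of all coding genes were. The median among those 31 was 11.9 TPM, against 15.4 TPM for expressed coding genes. The most abundant by the mean of the libraries were Lamtor1 (166 TPM) and Lamtor5 (131 TPM), subunits of the Ragulator scaffold, and Rragc (159 TPM), a Rag GTPase. The gene furthest from equality was Sesn1, a leucine-responsive inhibitor of the pathway, with a log2 ratio of 0.60 and 8.91 and 12.4 TPM. Its carrier members in the set, Slc38a9 and Slc36a1, were expressed as well.

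Of 23 other amino acid and peptide carriers, 14 were expressed, where 43.8% of all coding genes were. Slc15a3, a lysosomal carrier of histidine and peptides, stood at 558 and 515 TPM, above every member of the set. Mfsd12, a lysosomal cysteine importer, stood at 69.9 and 75.6 TPM. Slc15a4, the sister of Slc15a3, stood at 22.8 and 86.9 TPM although its counts were 1201 and 1569, and the TMM ratio showed no such step (log2 -0.04). Pqlc2, the lysosomal exporter of cationic amino acids, was furthest from equality at 25.9 and 15.1 TPM (log2 ratio -0.62).

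Of 40 genes that use imported amino acids, 31 were expressed, where 43.8% of all coding genes were. The highest by the mean of the libraries were Odc1 (ornithine decarboxylase) at 252 and 140 TPM, Glul (glutamine synthetase) at 181 and 140 TPM and Ckb (a creatine kinase) at 131 and 105 TPM. Between the libraries 2 genes of this list were 1.5-fold or more higher and 5 lower in replicate 2, out of 31 read, where 7.46% and 7.14% of all genes were. Of the 31, 2 were 2-fold or more apart, where 3.99% of all genes were. Prodh, which starts proline breakdown, was furthest from equality with a log2 ratio of -1.25 at 83 and 47 counts.

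Of 11 genes listed as accessory to the carriers, 8 were expressed, where 43.8% of all coding genes were. They were listed under 12 symbols, Tmem27 being an older symbol of Cltrn. Among the 8 was Slc7a6os (15.8 and 10.3 TPM), which is named for lying opposite Slc7a6 and is not a known accessory protein. Bsg (basigin, a chaperone of transporters at the surface) stood at 297 and 248 TPM, Arl6ip5, which binds the glutamate carrier Slc1a1, at 148 and 148 TPM, and Nedd4l, a ubiquitin ligase that removes carriers from the surface, at 85.4 and 102 TPM. Sgk1, a kinase that opposes such removal, was furthest from equality at 53.1 and 101 TPM (log2 ratio 0.91).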

How the data were processed

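Each library came with 3 tables of the authors. The gene table and its transcript counterpart carry RSEM's column names and, per the file headers, hold expected counts, TPM, posterior mean TPM and each transcript's percent of its gene's level. The third holds estimated counts and TPM under kallisto's column names, as deposited. Per the deposited descriptions the annotation was GENCODE M21 on mm10. Versions of the programs and the strand setting are not given in the sources used here. Because TPM depends on the transcript mix, its ratios can differ from those of counts.

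Members were taken by symbol and transcript type, and kallisto values were summed by gene. Members and lists were chosen with earlier results of these data known. Expressed means at least 1 TPM in both libraries, and the floor is 3 counts. Expected counts were rounded, scaled by TMM (edgeR 4.0.16) and compared at a mean count of at least 50. The labels do not say whether the libraries came from separate cultures beyond calling them biological replicates. All expressed members were named. Members between floor and minimum were named for the 4 highest, and Slc1a2 and Slc6a9 for their posterior mean levels. Listed genes were named for the 3 highest and the 1 furthest apart per list. Promoters were not compared, since the reference table held too few of the members. Alternatives were kallisto and posterior mean values, other minimums, DESeq2 1.42.0 size factors, other pseudocounts than 1, and leaving out each library.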

Additional observations from a re-analysis of the deposited data

How the results depend on the processing

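The number of members expressed lay between 18 (kallisto, or a minimum of 2 TPM) and 25 (over 3 counts in both libraries), against 19. With posterior mean TPM it was 24, with Slc1a2, Slc6a9, Slc6a12, Slc6a17 and Slc7a4 added. The number under the floor lay between 20 and 31, against 27. The median TPM of expressed members, 23.8, was 34.5 with kallisto, 13.1 with posterior mean TPM, 22.3 at a minimum of 0.5 TPM, 30.8 at 2 TPM, and 23.4 to 24.2 with 1 library left out. The members' summed TPM, 1456 on average, was 1267 with kallisto and 1411 to 1501 with 1 library left out. The share of the 4 highest members was 72.3% to 77.1% with 1 library left out. The count of members 2-fold apart stayed at 0 with DESeq2 size factors, TPM + 1, kallisto and a mean count of 200, and was 3 at a mean count of 10 (Slc1a3, Slc1a4 and Slc6a4, all with few counts). The median log2 ratio of expressed members was -0.04 on the TPM + 1 scale, 0.067 on the TMM scale and -0.11 with kallisto TPM + 1, where moves of 0.05 or more are given. The leading transcript's median share, 77.4%, was 75.1% with kallisto, 67.8% at a minimum of 5 TPM and of 20 TPM, and 72.9% to 75.3% with 1 library left out. The cause of these moves was not tested. Of the 19 members' levels, 8 moved by more than the SD of the libraries with kallisto. On the TPM + 1 scale 2 ratios (Slc43a2 and Slc38a9) changed sign with kallisto. No paired analysis was possible because there is 1 group. With 2 libraries no outlier test could be made.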
